A study of Mus musculus with 4 samples.

Results

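Neuroblasts and immature neurons were sought among the nuclei of the mouse cortex and hippocampus by the RNA they carry. A nucleus was taken as a member when at least 2 of 5 genes, *Igfbpl1*, *Draxin*, *Eomes*, *Sox11* and *Neurod4*, each had at least 1 unique molecular identifier (UMI, a tag that counts 1 captured RNA molecule), when *Igfbpl1* or *Draxin* was among them, and when *Trp73*, a gene of Cajal-Retzius cells, and *Pdgfra*, a gene of oligodendrocyte precursors, had none. The rule found 190 and 72 members in the libraries labelled *Sel1L* flox/flox and 131 and 93 in those labelled *Sel1L* Syn-Cre. These 486 members were 1.35% of the 36094 nuclei kept, which had over 600 genes and under 5% of their UMIs from mitochondrial genes. Members were chosen by the counts of these 7 genes, so the levels of those genes describe the choice and were not tested.

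The 4 libraries came from 4 mice of 5 weeks of age, 1 per library, with cortex and hippocampus combined. All 4 carried the floxed Sel1L allele. The 2 mice labelled *Sel1L* Syn-Cre also carried a Cre recombinase under the Synapsin I promoter, which is active in postmitotic neurons, and the 2 mice labelled *Sel1L* flox/flox served as controls. The study asked how loss of neuronal SEL1L, the adaptor of an endoplasmic reticulum (ER) ubiquitin ligase, changes brain cells. Nuclei were sorted, and RNA was counted from its 3′ end by 10x Genomics chemistry. The deposited counts held 122870443, 76617523, 75227337 and 74082610 UMIs in 12599, 8481, 8173 and 7366 nuclei. Here and below, 4 values in a row are *Sel1L* flox/flox replicates 1 and 2, then *Sel1L* Syn-Cre replicates 1 and 2.

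New neurons are still made in the postnatal hippocampus and in the wall of the lateral ventricle. In the dentate gyrus (DG), progenitors pass through a stage that expresses *Eomes* and *Neurod4*, then become neuroblasts and immature granule neurons that express *Sox11*, *Igfbpl1*, *Draxin* and *Dcx*, and at last granule neurons. *Prox1* specifies granule neurons throughout this course. Neuroblasts of the ventricular wall instead express *Dlx* genes and become GABAergic interneurons of the olfactory bulb. SEL1L with the ligase HRD1 removes misfolded proteins from the ER, a process called ER-associated degradation (ERAD), and cells short of ERAD are known to raise ER chaperones through the unfolded protein response (UPR).

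The genotype labels were checked first, because 1 library went against its label. Cre had 483, 0, 260 and 255 UMIs in all nuclei other than members, so the library labelled *Sel1L* flox/flox replicate 1 held Cre RNA although its label gives no Cre. Among members Cre had 7, 0, 2 and 5 UMIs. *Sel1l*, the targeted gene, was at 97.0, 90.2, 158 and 130 CPM (counts scaled to a total of 1000000 UMIs) in all other nuclei, and thus higher in both libraries labelled *Sel1L* Syn-Cre. A count of 3′ ends does not check a deletion upstream of it, so *Sel1l* counts could not settle the labels. *Derl3*, an outcome of the comparison and so no check of the labels, had 6, 1, 123 and 74 UMIs in granule-like neurons of the dentate gyrus, where replicate 1 of *Sel1L* flox/flox was near replicate 2. Shares, call counts and the main fold changes are therefore also given without replicate 1 of *Sel1L* flox/flox. Pairs of libraries shared 10 to 34 cell barcodes, and 0 of these were member nuclei.

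Members were few and most met the rule narrowly. Of 486 members, 407 (83.7%) had exactly 2 of the 5 genes and 79 had at least 3. *Sox11* was found in 455 members, *Igfbpl1* in 433, *Draxin* in 136, *Eomes* in 30 and *Neurod4* in 5. Just outside the rule stood 440 nuclei (197, 68, 117 and 58) with *Igfbpl1* or *Draxin* as their only gene of the 5, and 19 nuclei that met the rule but for a *Trp73* or *Pdgfra* UMI. In oligodendrocyte-like nuclei, which should lack these genes, *Igfbpl1* was found in 0.953%, 0.478%, 0.301% and 0.342% of nuclei, at median depths of 3456, 2815, 3000 and 2756 UMIs. The rule was met by 6, 1, 0 and 0 such nuclei, or 0.337%, 0.0957%, 0% and 0% of them.

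Members were of very uneven depth. Members had a median of 4991.5 UMIs, with a range of 1116 to 66200, and library medians of 6126, 4044.5, 3922 and 5887. A cut at 8000 UMIs, chosen after the data were seen, left 320 members at or below it (110, 57, 98 and 55) and 166 above it (80, 15, 33 and 38), with 70 members between 6000 and 10000 UMIs. The 5 rule genes together had a median of 11.97 UMIs per 10000 in the 320 shallower members and 2.23 in the 166 deeper ones. The rule asks for at least 2 such UMIs at any depth, so this density is bounded from below in shallow nuclei and its fall with depth is in part set by the rule. Scrublet placed 9 of the shallower and 52 of the deeper members among the highest doublet scores, or 12.6% of all members against 7.79% of all kept nuclei. By library these were 38, 8, 7 and 8 of the 190, 72, 131 and 93 members. The number of nuclei so placed was set beforehand at 10.1%, 6.78%, 6.54% and 5.89% of each library.

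**Figure D1:**
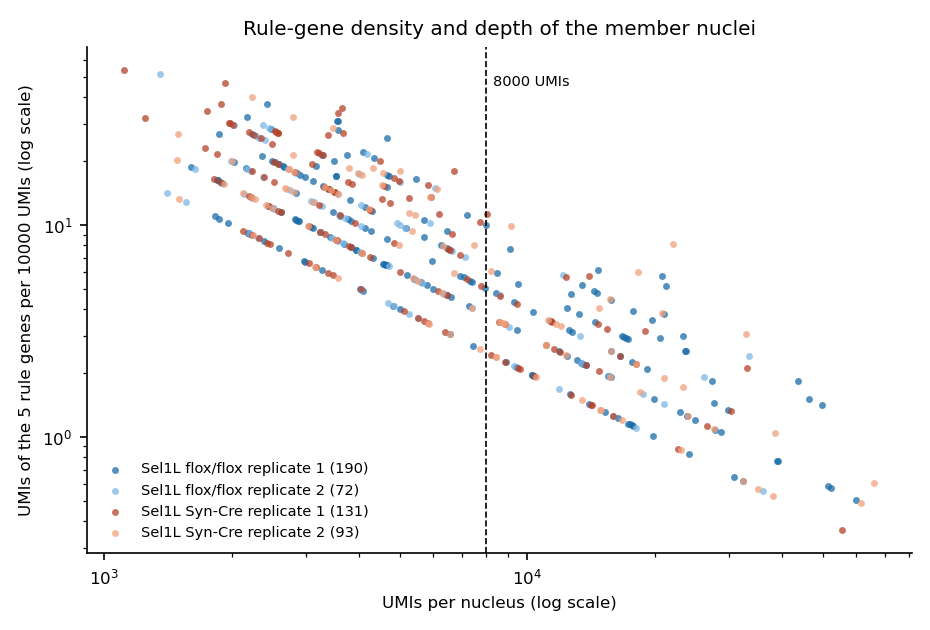
Each point is 1 of the 486 members, with its UMIs on the x axis and the UMIs of the 5 rule genes per 10000 UMIs on the y axis, both on log scales, coloured by library. Stripes are nuclei with the same number of rule-gene UMIs. The dashed line is at 8000 UMIs. As y is a count of at least 2 divided by x, the downward slope of the lower edge follows from the rule.

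The label held for the 320 shallower members and not for the 166 deeper ones. Of 21 genes of immature neurons that the rule did not use, 16 were more than 2-fold above all other nuclei in the shallower members, with a median ratio of 7.57, and their summed level was 3052 CPM against 775 CPM. In the deeper members 3 of 21 were more than 2-fold above, the median ratio was 1.34, and the summed level was 934 CPM. Nuclei with 1 rule gene only had a median ratio of 1.12. Of 8 genes of mature neurons, 1 was above all other nuclei in the shallower members and 4 in the deeper ones. Their summed level was 2547 CPM in the shallower members and 7022 CPM in the deeper ones, against 7116 CPM in all other nuclei. These ratios are descriptions, as the members were selected on the same counts. The deeper members are given no cell type.

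*Sema3c*, which encodes a secreted guidance cue, was at 623, 501, 617 and 561 CPM in the shallower members and at 14.2 CPM in all other nuclei. *Dcx*, a microtubule protein of migrating neurons, was at 364, 241, 343 and 337 CPM, against 78.9 CPM. *Sox4*, a partner of *Sox11* in neuron differentiation, was at 144, 166, 263 and 164 CPM, against 14.3 CPM. These genes stood above the other nuclei in each of the 4 libraries, and the libraries of the 2 genotypes overlapped for all 3. *Stmn1* and *Dpysl3*, which act on the growing cytoskeleton, were at 283 and 253 CPM over all shallower members. Of the 20 genes richest in these members by ratio, *Igfbpl1* led at 297-fold and *Draxin* followed at 250-fold, as the rule made them, and the others included the uncharacterised *2610307P16Rik* (78.1-fold), the polysialyltransferase *St8sia2* (23.8-fold), the phosphatase *Ptpro* (15.1-fold) and *Prox1* (14.2-fold).

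The shallower members were split into 3 classes by genes outside the rule, of which the last is a remainder. Nuclei with at least 2 of 10 GABAergic lineage genes numbered 82 (25.6%), other nuclei with a *Prox1* UMI 172 (53.8%), and nuclei with neither 66 (20.6%). The GABAergic share was 24.5%, 22.8%, 26.5% and 29.1%, and the *Prox1* share 62.7%, 49.1%, 51.0% and 45.5%. *Dlx6os1* and *Dlx1* were among the genes that chose the GABAergic nuclei, so their levels describe that choice. Among the GABAergic nuclei *Dlx6os1*, a noncoding RNA of the *Dlx5* and *Dlx6* locus, was at 1458 CPM, against 1.41 CPM in the *Prox1* nuclei. *Dlx1*, a transcription factor of this lineage, was at 332 CPM against 2.81 CPM. The *Prox1* nuclei instead carried *Sema3c* at 852 CPM against 112 CPM, *Bhlhe22* at 124 against 14.0 CPM, and *Neurod1*, which drives granule neuron differentiation, at 70.3 against 6.99 CPM. *Calb2*, a calcium-binding protein of young granule neurons, was likewise at 70.3 against 6.99 CPM. *Eomes* was at 56.1 CPM in the nuclei with neither mark and at 23.9 and 6.99 CPM in the *Prox1* and GABAergic nuclei. Glial genes in the nuclei with neither mark rested on few UMIs. The astrocyte list summed to 0, 175, 219 and 34.8 CPM by library, led by *Aqp4* with 11 UMIs, and to 43.8 CPM in all other nuclei. The list of oligodendrocyte precursors and immature oligodendrocytes summed to 267, 408, 1056 and 539 CPM, against 546 CPM in all other nuclei, and *Tnr*, an extracellular matrix protein, made up 531 of its 631 CPM over the libraries. By gene, 5 of 6 astrocyte genes and 7 of 9 of the precursor list were above all other nuclei, on at most 11 UMIs each apart from *Tnr*. The classes share libraries with each other and were not compared by a test.

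**Figure D2:**
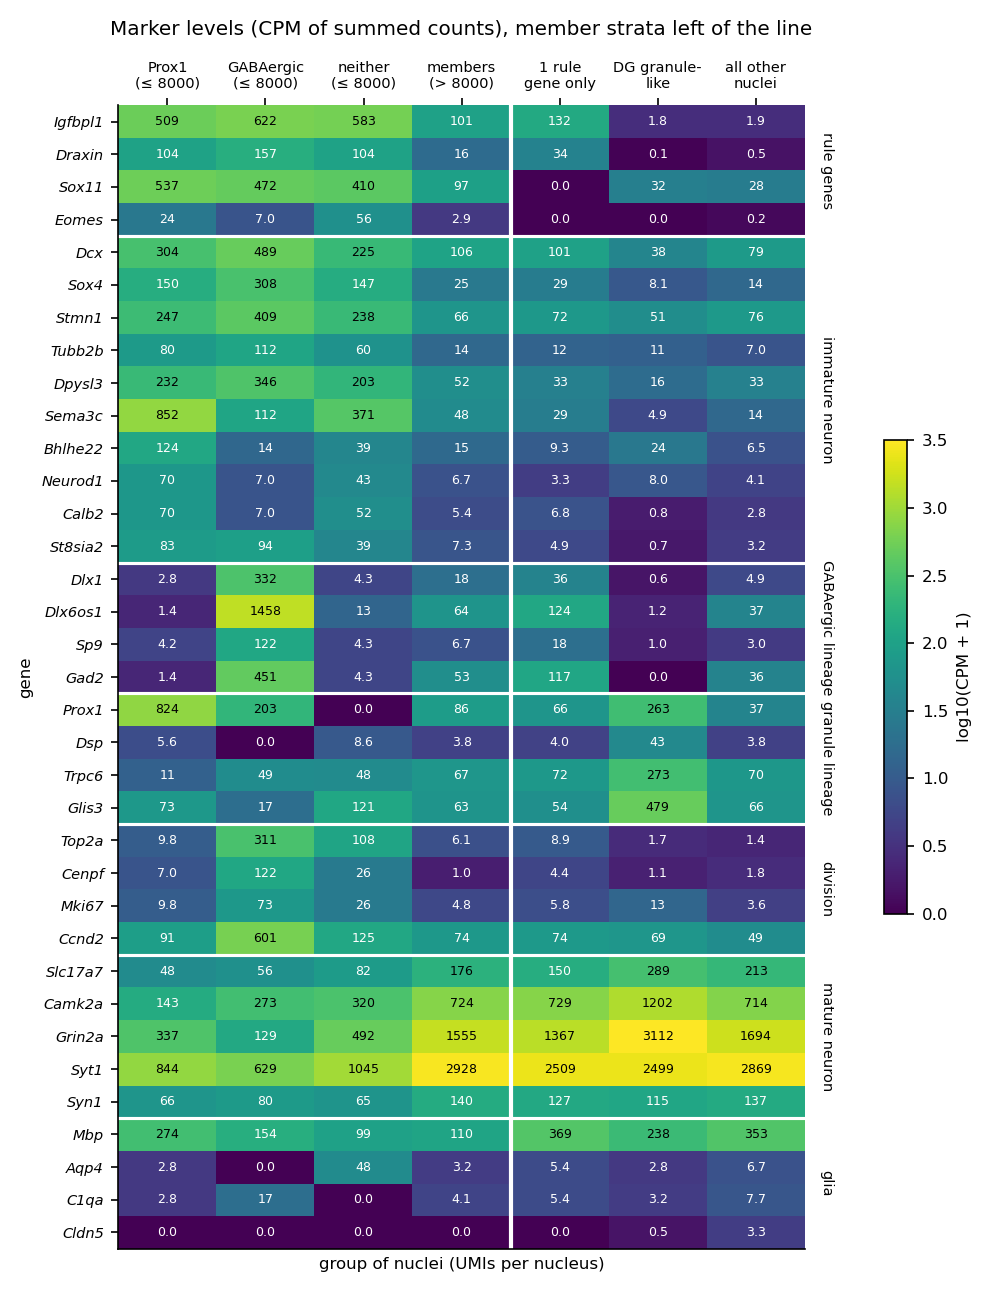
Levels in CPM of summed counts, printed in each cell and coloured as log10(CPM + 1), for marker genes in rows and groups of nuclei in columns. Columns left of the white line are the shallower members by class and the members above 8000 UMIs, and columns right of it are nuclei with 1 rule gene only, DG granule-like nuclei and all other nuclei. *Dcx* and *Sox4* are above the other nuclei in all 3 classes, while *Dlx6os1* and *Sema3c* differ between the GABAergic and *Prox1* nuclei.

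The *Prox1* nuclei were set beside DG granule-like nuclei by genes that chose neither group. DG granule-like nuclei, taken as nuclei with *Slc17a7* and *Prox1*, at least 2 of *C1ql2*, *Dsp*, *Trpc6*, *Glis3* and *Rfx3*, and no *Gad1* or *Gad2*, numbered 1437 (591, 316, 287 and 243) and held no member. Of the 10 genes of the DG granule list, 6 served in this choice, so that their levels there are partly set by it. The other 4 were lower in the *Prox1* members. *Calb1*, a calcium-binding protein of mature granule neurons, was at 19.7 CPM in the *Prox1* members and 119 CPM in the DG granule-like nuclei. *Rasgrf2*, an exchange factor of Ras proteins, was at 7.03 against 175 CPM, *Pdzd2* at 43.6 against 456 CPM and *Plk5* at 12.7 against 34.3 CPM. *Grin2a*, the NMDA receptor subunit that rises as neurons mature, was at 337 against 3112 CPM. Against all other nuclei, 6 of the 10 were higher in the *Prox1* members, 3 of them more than 2-fold, among them *Prox1*, which chose the members, and *Rfx3*, a transcription factor, at 941 against 321 CPM.

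Axon guidance genes were mixed in the shallower members. *Dcc*, the netrin receptor, was at 4689, 4848, 4213 and 3885 CPM against 837 CPM in all other nuclei. Of 14 axon guidance genes, 8 were above the other nuclei, 5 of them more than 2-fold, and the median ratio was 1.38. The classes were unlike in these receptors: *Nrp1* and *Plxna2*, receptor parts for semaphorins, were at 886 and 941 CPM in the *Prox1* nuclei and at 115 and 231 CPM in the GABAergic ones, and *Robo2*, a Slit receptor, was at 1654 CPM in the GABAergic nuclei and 141 CPM in the *Prox1* ones. *St8sia2* makes the polysialic acid that loosens contacts of young neurons. It was at 89.3, 75.7, 66.4 and 72.9 CPM in the shallower members, 7.33 CPM in the deeper members and 3.25 CPM in all other nuclei. *Slc12a5*, the chloride exporter of mature neurons, was at 36.6 CPM against 113 CPM, and *Slc12a2*, the chloride importer of young ones, at 98.5 against 77.5 CPM.

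Genes of dividing cells were carried by some members. Of 11 progenitor and cell division genes, 10 were more than 2-fold above all other nuclei in the shallower members, with a median ratio of 7.62. At least 2 of *Mki67*, *Top2a*, *Cenpf* and *Cdk1*, genes of the late cell cycle, were found in 21 of the 320 nuclei. *Top2a*, a DNA topoisomerase of dividing cells, was at 311 CPM in the GABAergic nuclei, 108 CPM in the nuclei with neither mark and 9.84 CPM in the *Prox1* nuclei. By library it was at 22.9, 118, 172 and 109 CPM in the shallower members. *Sel1L* flox/flox replicate 1 was the low library, and the 2 genotypes overlapped for this gene. The whole list summed to 295, 506, 673 and 524 CPM in the shallower members, with both libraries labelled *Sel1L* Syn-Cre above both others. Over all members it summed to 144, 310, 346 and 212 CPM, and the genotypes overlapped. Of its 4 genes tested between the genotypes in the shallower members, 0 were called (0.0966% of all genes were), 4 had a positive log2 fold change, with a median of 0.98 beside 0.01 over all genes, and 3 were higher at an unadjusted p under 0.05 (2.59% of all genes). *Ccnd2*, a cyclin of the G1 phase, was at 174, 156, 274 and 264 CPM, with a log2 fold change of 0.68 (SE 0.22; adjusted p = 0.586 in edgeR). Without *Sel1L* flox/flox replicate 1 the median in the shallower members was 0.50 over 5 genes, and *Top2a* went from 1.27 to 0.28. In all members the median of the list was 0.53 over 7 genes, of which 5 were positive. Without that library the median turned to -0.47, with 2 of 7 positive, and *Top2a* was at -0.52. The direction over all members thus rested on that library.

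Member nuclei made up 1.54%, 0.853%, 1.62% and 1.29% of the kept nuclei, with 95% Wilson intervals of 1.33 to 1.77, 0.678 to 1.07, 1.37 to 1.92 and 1.05 to 1.57. *Sel1L* flox/flox replicate 2 was the low library, and replicate 1 lay between the 2 libraries labelled *Sel1L* Syn-Cre. The mean share was 1.20% ± 0.483 (SD, n = 2) in *Sel1L* flox/flox and 1.46% ± 0.239 (SD, n = 2) in *Sel1L* Syn-Cre, and the difference of 0.26 percentage points was within the spread between libraries (two-sided exact permutation test, p = 0.667). With 2 libraries against 2 this test cannot give a p below 0.33, and a p above it does not show that the shares are alike. The difference was 0.602 points without *Sel1L* flox/flox replicate 1 and -0.0818 points without replicate 2, so its direction rested on 1 library. Intervals here cover counting error only.

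The share of members changed with depth. With each nucleus thinned to 2000 UMIs, and 2940 shallower nuclei left out, the shares were 0.553%, 0.473%, 0.787% and 0.473%. Shallower members alone were 0.890%, 0.676%, 1.22% and 0.761% of the kept nuclei. *Sel1L* Syn-Cre replicate 1 was the highest library on both measures, and its interval overlapped that of *Sel1L* flox/flox replicate 1 on both. As a share of members and DG granule-like nuclei together, members were 24.3%, 18.6%, 31.3% and 27.7%, and both libraries labelled *Sel1L* Syn-Cre were above both labelled *Sel1L* flox/flox (exact permutation test, p = 0.33, the smallest this design allows). The DG granule-like nuclei were themselves 4.78%, 3.75%, 3.56% and 3.36% of the kept nuclei, lower in both libraries labelled *Sel1L* Syn-Cre. Of members and nuclei with at least 2 UMIs of *Slc17a7* or of *Gad1* and *Gad2* together, members were 2.86%, 1.75%, 3.18% and 2.22%, and the genotypes overlapped.

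**Figure D3:**
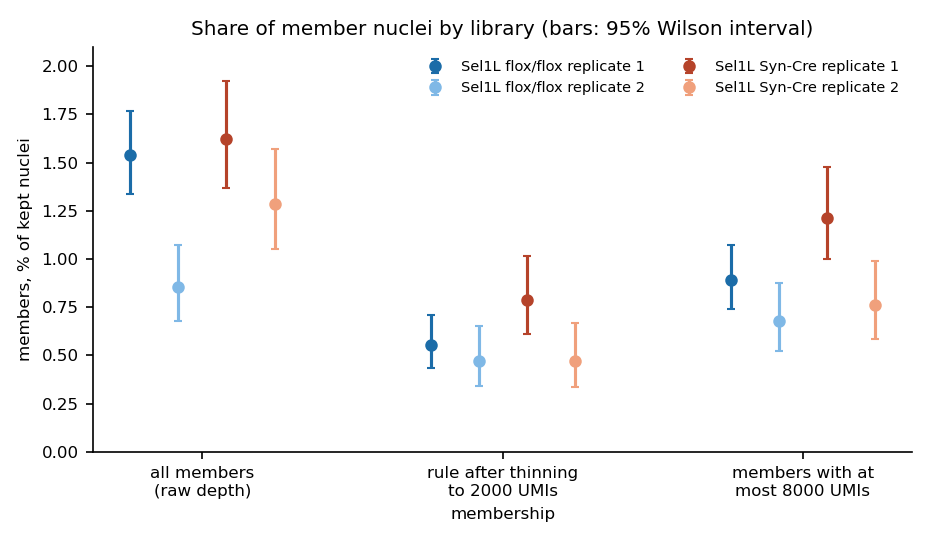
Members as a percent of kept nuclei in each library, with 95% Wilson intervals as bars, by the rule at full depth, by the rule after thinning each nucleus to 2000 UMIs, and for members with at most 8000 UMIs. *Sel1L* flox/flox replicate 2 is the lowest at full depth, at 0.853%, and lies beside *Sel1L* Syn-Cre replicate 2 after thinning, at 0.473% each.

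*Dcx*, which the rule did not use, was found in 72.6%, 61.1%, 60.3% and 73.1% of members. The high and the low libraries were 1 of each genotype, and the groups overlapped. The mean was 66.9% ± 8.15 (SD, n = 2) against 66.7% ± 9.06 (SD, n = 2), a difference of -0.160 percentage points (exact permutation test, p = 1.0). The difference was 5.60 points without *Sel1L* flox/flox replicate 1 and 6.25 points without *Sel1L* Syn-Cre replicate 1, but -5.92 and -6.57 points without the replicates 2 of *Sel1L* flox/flox and *Sel1L* Syn-Cre. In oligodendrocyte-like nuclei, the background share with a *Dcx* UMI was 5.05%, 3.06%, 3.01% and 1.71%. Thinned to 2000 UMIs, with 28 shallower members left out, members had *Dcx* in 35.7%, 38.8%, 39.2% and 28.1%. *Dcx* was found in 63.8% of the shallower and 75.3% of the deeper members, whose median depths were 3528 and 15571.5 UMIs.

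Between the genotypes, markers of immaturity gave no call. Counts were summed over the members of each library and compared with edgeR's quasi-likelihood test. The deeper members, which were given no cell type, held 3136465 of the 4365333 member UMIs. Values over all members are thus mostly theirs, and those of the shallower members are given beside them. Of 20 immature neuron genes tested among 21, 0 were called (0% of all genes tested were), 18 had a positive log2 fold change of *Sel1L* Syn-Cre over *Sel1L* flox/flox, and the median was 0.18, beside 0.00 over all genes tested. *Dcx* had a log2 fold change of -0.06 (SE 0.20) and *Sema3c* of 0.00 (SE 0.26). In the shallower members 0 of 17 tested were called (0.0966% of all genes were) and the median was 0.23, beside 0.01 over all genes. *Dlx6os1*, at 213, 279, 468 and 456 CPM in the shallower members, was higher in both libraries labelled *Sel1L* Syn-Cre than in both others, by 0.92 (SE 0.20) on the log2 scale, and was not called (adjusted p = 0.166 in edgeR). *Nrp1*, at 746, 691, 479 and 479 CPM, was lower in both, by -0.60 (SE 0.18; adjusted p = 0.475 in edgeR). *Prox1*, at 568, 534, 542 and 397 CPM, had a log2 fold change of -0.23 (SE 0.20).

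Across all genes, edgeR called 0 of 10334 tested genes (0%) between the genotypes in the members, with 351 at an unadjusted p under 0.05. DESeq2 also called 0, with 61 at an unadjusted p under 0.05. The members together held 4365333 UMIs, of which 3136465 came from the deeper members. Leaving out 1 library gave 0, 0, 34 and 11 calls, the latter 2 without the *Sel1L* Syn-Cre replicates 1 and 2, and without a filter on low counts 32 genes were called. In the 1437 DG granule-like nuclei the same test called 85 of 12982 genes (0.655%), of which 56 were higher in *Sel1L* Syn-Cre (0.431%). They held 15687114 UMIs. Thinned to the totals of the members, these nuclei still gave 32 higher calls of 9658 genes (0.331%).

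ER quality control genes, the group that SEL1L bears on most directly, were called in DG granule-like nuclei. None was called in members, where edgeR called 0 of 10334 genes of any kind over all depths. Whether the effects themselves differed was tested separately. Among 35 genes of ERAD, ER chaperones and the UPR, 20 of 35 tested were called higher in the DG granule-like nuclei (0.431% of all genes). The median log2 fold change was 1.13, beside 0.00 over all genes. After thinning, 15 of 33 tested were called higher (0.331% of all genes). In the members 0 of 32 tested were called (0% of all genes), the median was 0.24 and 24 had a positive fold change. At an unadjusted p under 0.05, 6 were higher, where 1.9% of all genes were. All 6 were among 19 chaperone and UPR genes tested, of which 17 were positive, with a median of 0.40. Of 13 ERAD genes tested 7 were positive, with a median of 0.08. The chaperone and UPR list summed to 693, 799, 998 and 961 CPM, higher in both libraries labelled *Sel1L* Syn-Cre. In the shallower members 0 of 22 ER genes tested were called (0.0966% of all genes), the median was 0.11 and 13 were positive. At an unadjusted p under 0.05, 1 was higher (2.59% of all genes). The deeper members had larger values. Of 27 ER genes tested there 0 were called (0 of 8543 over all genes), the median was 0.34 and 20 were positive. At an unadjusted p under 0.05, 7 were higher (2.34% of all genes), so the values over all members mix both sets. DG granule-like nuclei of at most 8000 UMIs (599 nuclei, 151 of 9334 genes called, 1.62%, of which 91 higher, 0.975%) had 20 of 34 called higher, and a median of 1.36. These nuclei had a median depth of 6193 UMIs and 3614687 UMIs in all, against 3528 and 1228868 in the shallower members. Counts were not thinned at this cut, so the numbers of calls there are not at matched depth. The 13 genes not tested in the shallower members were below the count filter there, among them *Derl3*.

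Several of these genes are known targets of the UPR transcription factors ATF6 and XBP1, which bind a promoter element made of CCAAT and CCACG with 9 bases between them. Over windows of 250 bases before to 50 after each gene start (RefSeq, GRCm38.p6), this element was found on either strand in 39 of 32851 windows (0.119%) and in 37 of 27025 genes (0.137%). Of the 35 ER genes, 29 had a window and 9 held it: *Calr*, *Canx*, *Creld2*, *Derl3*, *Dnajc3*, *Hsp90b1*, *Hspa5*, *Pdia6* and *Syvn1*. Of 46 genes with a window among those called higher in DG granule-like nuclei, 8 held it. None of 4 rule genes and 12 immature neuron genes with a window did. A match describes these letters and is not evidence of binding. The sequences of 5 genes on which the comparison turns are shown, 250 bases before the gene start on the strand of the gene, 5′ to 3′, with the element in capitals. *Derl3* lies at chr10:75893148-75893397 (plus strand), where the element is on the minus strand, *Hspa5* at chr2:34771840-34772089 (plus strand) and *Dnajc3* at chr14:118937682-118937931 (plus strand). *Herpud1* at chr8:94386179-94386428 (plus strand) and *Sel1l* at chr12:91849158-91849407 (minus strand) do not hold the element with 9 bases between its parts. Other spacings were not searched. The *Herpud1* sequence does hold ATTGG, which is CCAAT on the other strand, close before CCACG.
Derl3: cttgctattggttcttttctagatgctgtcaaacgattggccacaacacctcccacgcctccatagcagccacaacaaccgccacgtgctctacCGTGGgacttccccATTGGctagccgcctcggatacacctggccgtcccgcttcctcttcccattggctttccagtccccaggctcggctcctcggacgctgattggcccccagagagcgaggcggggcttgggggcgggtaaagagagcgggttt
Hspa5: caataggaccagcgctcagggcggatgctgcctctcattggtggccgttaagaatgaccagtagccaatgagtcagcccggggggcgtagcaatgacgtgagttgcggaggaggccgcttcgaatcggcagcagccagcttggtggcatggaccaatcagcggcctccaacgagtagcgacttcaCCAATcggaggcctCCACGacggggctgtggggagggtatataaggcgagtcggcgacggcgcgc
Dnajc3: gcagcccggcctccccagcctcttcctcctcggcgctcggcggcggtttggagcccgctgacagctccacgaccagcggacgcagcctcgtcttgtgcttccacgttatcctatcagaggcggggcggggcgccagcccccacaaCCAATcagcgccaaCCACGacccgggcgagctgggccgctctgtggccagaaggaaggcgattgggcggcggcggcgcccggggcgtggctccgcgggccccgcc
Herpud1: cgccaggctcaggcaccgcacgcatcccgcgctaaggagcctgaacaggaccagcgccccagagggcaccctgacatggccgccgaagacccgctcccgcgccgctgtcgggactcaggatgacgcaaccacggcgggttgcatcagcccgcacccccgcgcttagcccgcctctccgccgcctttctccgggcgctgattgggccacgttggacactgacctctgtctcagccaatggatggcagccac
Sel1l: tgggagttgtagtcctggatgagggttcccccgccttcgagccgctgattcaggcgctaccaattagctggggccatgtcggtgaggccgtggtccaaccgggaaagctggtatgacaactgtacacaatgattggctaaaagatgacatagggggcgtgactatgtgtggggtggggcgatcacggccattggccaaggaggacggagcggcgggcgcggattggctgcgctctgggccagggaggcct

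*Derl3*, a derlin that takes part in ERAD, had 0, 0, 3 and 9 UMIs in the members and 0 in all 4 libraries of the shallower members. In DG granule-like nuclei of at most 8000 UMIs it had 0, 0, 50 and 29 UMIs, or 61.5 and 47.9 CPM in the 2 libraries labelled *Sel1L* Syn-Cre. Taken over these 2 libraries together, 3 counts of 580633 UMIs set a floor of 5.17 CPM in the shallower members against 55.7 CPM in the DG granule-like nuclei. *Derl3* was thus at least 10.8-fold lower in the shallower members of *Sel1L* Syn-Cre. The 12 member UMIs all came from members above 8000 UMIs. In all DG granule-like nuclei *Derl3* had 6, 1, 123 and 74 UMIs and rose by 5.55 (SE 0.40) on the log2 scale (adjusted p = 0.000329 in edgeR).

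*Dnajc3*, a co-chaperone that restrains the UPR kinase PERK, was at 84.7, 66.2, 72.0 and 123 CPM in the shallower members, with a log2 fold change of 0.25 (SE 0.34). The genotypes overlapped there. In DG granule-like nuclei of at most 8000 UMIs it was at 50.8, 44.0, 336 and 228 CPM and rose by 2.55 (SE 0.19). Both libraries labelled *Sel1L* Syn-Cre stood far above both others in the DG granule-like nuclei. *Herpud1*, an ERAD scaffold, was at 22.9, 37.8, 33.2 and 36.5 CPM in the shallower members (0.27, SE 0.52) and at 15.2, 10.99, 123 and 77.6 CPM in the DG granule-like nuclei, a rise of 2.88 (SE 0.29). The same contrast in levels is seen for *Pdia6*, a disulfide isomerase. It was at 75.5, 80.4, 102 and 82.1 CPM in the shallower members (0.26, SE 0.31), and it rose by 2.26 (SE 0.21) in the DG granule-like nuclei.

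*Hsp90b1* and *Hspa5* encode chaperones of the ER lumen. *Hsp90b1*, which encodes GRP94, was at 71.0, 52.0, 155 and 82.1 CPM in the shallower members, higher in both libraries labelled *Sel1L* Syn-Cre, with a log2 fold change of 0.93 (SE 0.35; adjusted p = 0.739 in edgeR). *Hspa5*, which encodes BiP, was at 36.6, 37.8, 77.5 and 41.0 CPM, with 0.73 (SE 0.42) there and 1.08 (SE 0.27; adjusted p = 0.942 in edgeR) in all members. Neither was called. In the DG granule-like nuclei of at most 8000 UMIs both rose, by 2.21 (SE 0.16) and 2.22 (SE 0.21). *Sel1l* itself was at 108, 42.6, 96.9 and 82.1 CPM in the shallower members (0.12, SE 0.37), with the genotypes overlapping, and at 93.7, 83.0, 273 and 208 CPM in the DG granule-like nuclei, where it rose by 1.42 (SE 0.17).

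**Figure D4:**
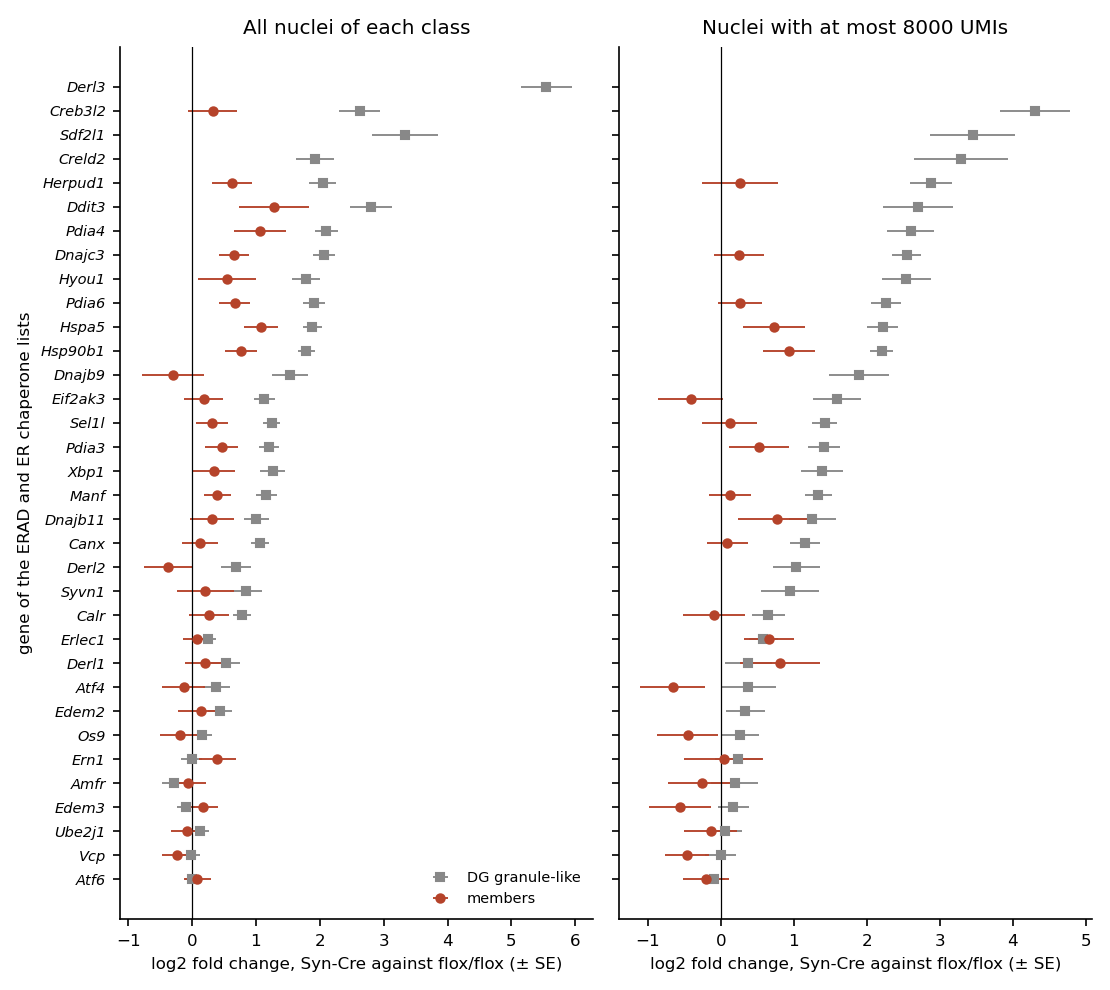
Log2 fold change of *Sel1L* Syn-Cre over *Sel1L* flox/flox with its SE as bars, for 34 genes of the ERAD and ER chaperone lists, in all nuclei of each class (left) and in nuclei of at most 8000 UMIs (right). Squares are DG granule-like nuclei and circles members; a gene without a circle was not tested in the members, and *Derl3* is left out at the right since both flox/flox libraries were at 0. Most circles lie near 0 at the right, with a median of 0.11, while the squares reach past 2 for *Dnajc3*, *Hspa5* and *Herpud1*.

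The difference between the classes was itself tested, with library as a block, since both classes came from the same mice. Members in this test were of all kinds, with GABAergic nuclei and nuclei with neither mark among them. The *Prox1* nuclei, 172 of the 486 members, were not tested alone against DG granule-like nuclei. Over 13560 genes edgeR called 0 (0%), with 543 at an unadjusted p under 0.05, and DESeq2 called 0, with 62. Of the 35 ER genes, 30 had a smaller genotype effect in members than in DG granule-like nuclei, the median difference was -0.77, beside 0.01 over all genes, and 18 were lower at an unadjusted p under 0.05, where 2% of all genes were. In nuclei of at most 8000 UMIs 29 of 32 were lower, the median was -1.10, and 14 were lower at an unadjusted p under 0.05 (3.51% of all genes). No single ER gene passed the threshold. The lowest adjusted p-values in nuclei of at most 8000 UMIs were those of the following genes, while *Creb3l2*, on 27 member UMIs, had a larger difference of -3.89 (SE 1.02; adjusted p = 0.434 in edgeR). *Pdia6* had -2.02 (SE 0.35; adjusted p = 0.0645 in edgeR), *Dnajc3* -2.31 (SE 0.43; adjusted p = 0.0886) and *Herpud1* -2.63 (SE 0.58; adjusted p = 0.208). A smaller response of the listed genes in members was thus not established gene by gene over the 4 libraries. The adjusted p of *Dnajc3* ranged from 0.000166 to 1 over its alternatives.

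**Figure D5:**
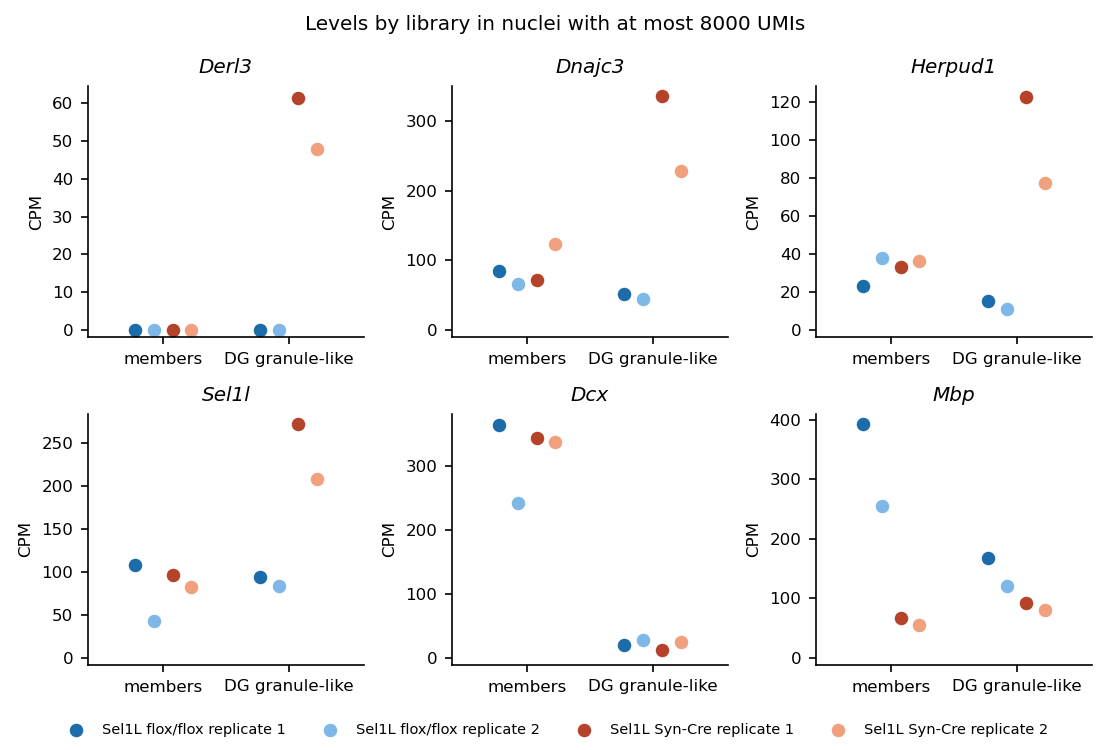
Levels in CPM in each of the 4 libraries, in members and DG granule-like nuclei of at most 8000 UMIs, for 6 genes, each panel with its own linear axis. *Derl3*, *Dnajc3*, *Herpud1* and *Sel1l* are high in both *Sel1L* Syn-Cre libraries of the DG granule-like nuclei and not in those of the members, *Dcx* is high in members of all libraries, and *Mbp* is lower in both *Sel1L* Syn-Cre libraries in both classes.

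In nuclei of at most 8000 UMIs 4 genes of 9465 (0.0423%) passed the test of the difference, all outside the ER lists. *Nucb2*, which encodes a calcium-binding protein, was at 29.8, 28.4, 16.6 and 13.7 CPM in the shallower members, on 28 UMIs in all, and at 13.8, 17.1, 138 and 69.3 CPM in DG granule-like nuclei. Its genotype effect was lower in members by -3.79 (SE 0.59; adjusted p = 0.0401 in edgeR). The libraries labelled *Sel1L* Syn-Cre were the low ones in members and the high ones in DG granule-like nuclei. *Erbb4*, the neuregulin receptor, was at 973, 643, 1099 and 1149 CPM in members and at 65.3, 89.2, 11.1 and 16.5 CPM in DG granule-like nuclei, a difference of 2.93 (SE 0.41; adjusted p = 0.0210). *Nrxn3*, a presynaptic adhesion protein, was at 4093, 4753, 5945 and 6447 CPM against 922, 917, 401 and 571 CPM, a difference of 1.43 (SE 0.18; adjusted p = 0.0102). *Hs3st4*, a heparan sulfate sulfotransferase, was at 41.2, 37.8, 58.1 and 137 CPM against 125, 118, 34.5 and 79.2 CPM, a difference of 2.37 (SE 0.38; adjusted p = 0.0401). The GABAergic lineage list summed to 588, 761, 1090 and 1017 CPM in the shallower members, higher in both libraries labelled *Sel1L* Syn-Cre. Of its 6 genes tested 0 were called (0.0966% of all genes), 5 were positive and the median was 0.72, beside 0.01 over all genes. At an unadjusted p under 0.05 in edgeR, 3 were higher (2.59% of all genes). Its part in the differences above was not tested. For *Erbb4*, *Nrxn3* and *Hs3st4* the *Sel1L* Syn-Cre libraries were the higher in members and the lower in DG granule-like nuclei. Without *Sel1L* flox/flox replicate 1, the count of differences was 45 in these nuclei (0.444%) and 17 in all nuclei (0.124%).

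In the shallower members alone, 6 of 6210 genes (0.0966%) were called between the genotypes by edgeR and 3 by DESeq2. Of these, 1 rose and 5 fell (0.0805%). *Unc13c*, a synaptic vesicle priming factor, had 0, 0, 18 and 19 UMIs. Over both libraries labelled *Sel1L* Syn-Cre it was at 63.7 CPM, against a floor of 3 counts over both others of 4.63 CPM, or at least 13.8-fold higher (adjusted p = 0.0293 in edgeR). In the deeper members it had 103, 17, 10 and 29 UMIs and a log2 fold change of -1.11 (SE 0.33), so that over all members the value was -0.19 (SE 0.30). *Gm20754*, a noncoding RNA, was at 428, 407, 185 and 132 CPM and fell by 1.38 (SE 0.22). The number of calls was 40, 63, 37 and 0 when 1 library was omitted, in the usual order, the last without *Sel1L* Syn-Cre replicate 2. Of the 6 calls, 1 was also called in all DG granule-like nuclei (16.7% of the 6, 1.18% of the 85) and 2 in those of at most 8000 UMIs (33.3% of the 6, 1.32% of the 151).

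The genes that fell also included *Mbp*, *Mal* and *Tmeff2*, of which *Mbp* and *Mal* encode proteins of myelin. *Mbp* was at 394, 255, 66.4 and 54.7 CPM and fell by 2.44 (SE 0.29; adjusted p = 0.00584 in edgeR). Both *Sel1L* flox/flox libraries were above both others. *Tmeff2*, a membrane protein of the brain, fell by 2.18 (SE 0.33), from 703 and 326 to 141 and 86.6 CPM, and *Mal* fell by 4.91 (SE 0.85), on 32, 10, 0 and 1 UMIs.

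The oligodendrocyte list moved with these genes. All 6 of its genes were found in the shallower members, 5 were tested, all 5 had a negative log2 fold change (median -2.44, beside 0.01 over all genes), and 2 were called lower (0.0805% of all genes). Its summed level was 1186, 639, 177 and 105 CPM, with *Mbp* the most abundant and no defining gene at 0 over the 4 libraries. In the deeper members the list did not separate the genotypes, with sums of 279, 79.9, 346 and 60.8 CPM. There 4 of its genes were tested, 2 were positive, the median was -0.34 and 0 were called (0 of 8543 over all genes). In all other nuclei the sum was 1252, 919, 370 and 292 CPM, in the same order of libraries. In DG granule-like nuclei all 6 were tested and negative, with a median of -1.90 and 2 called lower (0.223% of all genes), and in those of at most 8000 UMIs 3 of 5 were called lower (0.643% of all genes). The part of RNA from oligodendrocytes in the fall of *Mbp*, *Mal* and *Tmeff2* in members was not tested. The summed levels of the astrocyte list (27.5, 66.2, 63.7 and 13.7 CPM, led by *Fgfr3*) and the microglia list (75.5, 147, 83.0 and 45.6 CPM, led by *P2ry12*) overlapped between the genotypes. The endothelial and mural list was at 11.4, 23.6, 36.0 and 4.56 CPM, with *Cldn5* at 0.

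The genotype comparisons were repeated without *Sel1L* flox/flox replicate 1, the library with Cre RNA, which left 1 control library. In members 0 of 10945 genes (0%) were called, and in the shallower members 40 of 6088 (0.657%). Of the ER genes, 0 of 31 tested were called in members (median 0.12) and 0 of 19 in the shallower members (median 0.01). In DG granule-like nuclei 21 of 34 were called higher (1.65% of all genes), with a median of 1.17, and in those of at most 8000 UMIs 16 of 34 (0.948%), with a median of 1.31. The median ER difference between the classes was -0.72 in all nuclei and -1.29 in nuclei of at most 8000 UMIs. *Creb3l2*, a transcription factor held at the ER, was called lower in members in both (1 of 34 ER genes, beside 0.0291% of all genes, and 2 of 34, beside 0.207%). *Herpud1* was the other gene of the latter 2, with a difference of -3.32 (adjusted p = 0.0294 in edgeR).

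Among the ER genes described, *Sel1l* moved to 1.07 in the shallower members (adjusted p = 0.731 in edgeR) from 0.12 with the library. In DG granule-like nuclei of at most 8000 UMIs it was at 1.52. Of the immature neuron genes 10 of 20 were positive in members, with a median of 0.02, and 15 of 17 in the shallower members, with a median of 0.33. *Mbp*, *Tmeff2* and *Gm20754* were again called lower in the shallower members, by -2.05, -1.47 and -1.33, and *Unc13c* again higher (adjusted p = 0.00911 in edgeR), while *Mal* was not tested. Of the oligodendrocyte genes 3 of 4 tested were called lower (0.329% of all genes). Among the class differences in nuclei of at most 8000 UMIs, *Erbb4* (3.54), *Nrxn3* (1.35) and *Hs3st4* (2.44) were again called, and *Nucb2*, at -3.52, was not (adjusted p = 0.0537 in edgeR).

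Genes of the ATF4 branch of the stress response and of one-carbon metabolism were at low counts in members. Of 28 genes, 12 passed the filter, 0 were called (0% of all genes were) and the median log2 fold change was 0.29, beside 0.00 over all genes. In the shallower members 6 passed, 0 were called (0.0966% of all genes were) and the median was 0.49, beside 0.01. *Mthfd2*, a mitochondrial folate enzyme, had 12, 5, 9 and 2 UMIs in the shallower members and was not tested there, and 20, 16, 58 and 15 UMIs in the DG granule-like nuclei of at most 8000 UMIs. *Aldh1l2*, which oxidises formyl folate in mitochondria, was at 61.8, 123, 77.5 and 59.3 CPM in the shallower members, with a log2 fold change of -0.30 (SE 0.37) and overlapping genotypes. *Phgdh* and *Psat1*, the first enzymes of serine synthesis, had 14 and 16 UMIs over the shallower members of all 4 libraries, and 27 and 23 UMIs over all members. Both were below the count filter in either set and were not tested. Among DG granule-like nuclei 1 of 21 tested genes was called higher (0.431% of all genes), *Atf5*, a transcription factor next to ATF4, at 2.05 (SE 0.37; adjusted p = 0.0423 in edgeR), while in members *Atf5* had 1.13 (SE 0.58) and was not called. Of the 13 tested in DG granule-like nuclei of at most 8000 UMIs, 3 were called higher (0.975% of all genes). These were *Atf5*, *Mthfd2* and *Psph*, the last enzyme of serine synthesis. Without *Sel1L* flox/flox replicate 1 the counts were 7 of 23 in all DG granule-like nuclei (1.65% of all genes) and 1 of 18 in those of at most 8000 UMIs (0.948%), and 0 of 13 in members.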

How the data were processed

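Single-nucleus RNA was measured in 4 libraries of cortex and hippocampus (2 labelled *Sel1L* flox/flox and 2 labelled *Sel1L* Syn-Cre). The authors made 10x Genomics 3′ v3 libraries, and deposited, for each nucleus, unnormalized UMI counts over 32286 features, made with Cell Ranger 6.1.0 on GRCm38 per the submitters' processing notes. Whether intronic reads were counted is not given in the sources used here.

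Nuclei with 600 genes or fewer (515) or 5% or more mitochondrial UMIs (10) were left out, which kept 36094 of 36619 nuclei. No doublets were removed for the main values. Scrublet in scanpy 1.11.5 gave doublet scores, and leaving out the highest (0.8% per 1000 nuclei, 5.89% to 10.1% of a library) was an alternative. The members, lists and tests were chosen with earlier results of these data known, and the cut at 8000 UMIs and all results that use it were chosen after the data were seen.

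Counts were summed per library and compared with edgeR 4.0.16 (filterByExpr, TMM, quasi-likelihood F test, two-sided, Benjamini-Hochberg adjustment over all genes tested, threshold 0.05, prior count 0.125), or with DESeq2 1.42.0 in R 4.3.3. The difference between classes was the class by genotype term with library as a block. CPM are counts scaled to 1000000 UMIs of the summed nuclei, without TMM. A group at 0 was set to a floor of 3 counts over the group. P-values measure the spread between 2 mice per genotype. Shares were compared by exact permutation of the 4 libraries (6 arrangements) with 95% Wilson intervals. Oligodendrocyte-like nuclei had at least 5 of 6 oligodendrocyte genes and no *Slc17a7*. Named genes were those called with at least 20 counts, up to 10 per direction, and genes of the fixed lists, and genes rich in members had at least 50 UMIs and UMIs in 20% of members. Some genes that these rules name enter the counts and summed levels but are not reported here singly. The scripts were tested on simulated data. Tables and plots were made with pandas 2.3.3, matplotlib 3.10.9, numpy 2.4.6 and scipy 1.17.1 in Python 3.11.15.

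Alternatives were DESeq2, other normalizations and filters, thinning, doublet removal, stricter membership (3 rule genes, or *Igfbpl1* required), members without 3 glial or vascular markers, a block for the replicate number, and each library left out.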

Additional observations from a re-analysis of the deposited data

Results flagged for a closer look

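In nuclei of at most 8000 UMIs, the effect of genotype differed between members and DG granule-like nuclei for 4 genes, by a test of the difference itself in edgeR. It was higher in members for *Nrxn3* by 1.43, for *Erbb4* by 2.93 and for *Hs3st4* by 2.37 on the log2 scale, and lower for *Nucb2* by -3.79. In these members the GABAergic lineage list was also higher in both libraries labelled *Sel1L* Syn-Cre, at 588, 761, 1090 and 1017 CPM. Its part in the differences was not tested. Over all depths the same test called 0 genes.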

How the results depend on the processing

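Members are few, 2 mice stand for each genotype, and 1 control library holds Cre RNA. The direction of the share and *Dcx* results was not stable. With 1 library left out the difference in member share ran from -0.0818 to 0.602 points, and the difference in the *Dcx* share from -6.57 to 6.25 points. The *Dcx* difference also turned to 1.90 points without the highest doublet scores and to 4.27 points in members of at most 8000 UMIs. Genes called in members numbered 32 without a filter on low counts, 0 to 34 with 1 library left out, 6 at 8000 UMIs or fewer, 3 there with DESeq2, and 40, 63, 37 and 0 there with 1 library left out in the order of the libraries. In DG granule-like nuclei they numbered 486 without a filter, 216 without doublet scores, 53 after thinning, 151 at 8000 UMIs or fewer, 37 to 631 with 1 library left out, and 167, 185, 34 and 237 at 8000 UMIs or fewer with 1 library left out. For the difference between classes they numbered 12 without a filter, 6 to 17 with 1 library left out, 4 at 8000 UMIs or fewer, and 45, 35, 9 and 7 there with 1 library left out. The cause of these shifts was not tested. A lone library of an arm was assumed to vary like the others. With a replicate block, calls were 0 in members (266 at an unadjusted p under 0.05) and 389 in DG granule-like nuclei. Deviations of same-numbered samples correlated at -0.0593 in members and 0.196 in DG granule-like nuclei. With 2 pairs and no label that ties the numbers to a litter or day, the samples were taken to share a number only. Over 293 settings of named ER genes, 282 kept direction and side of the threshold and 7 differences became significant. The other 4 reversed, all in members and far from significance: *Dnajc3* at -0.11 with at least 5 rule-gene UMIs per 10000 and, at 8000 UMIs or fewer, at -0.11 without *Sel1L* Syn-Cre replicate 2, and *Sel1l* there at -0.28 and -0.038 without *Sel1L* flox/flox replicate 2 and *Sel1L* Syn-Cre replicate 1.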

Other observations

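The 20 genes richest in the 166 members above 8000 UMIs shared 5 with the 20 of the shallower members (*Igfbpl1*, *Sox11*, *Sema3c*, *Rerg* and *Gm17750*). After *Igfbpl1* (54.6-fold), the highest ratios to all other nuclei were those of the chloride channel gene *Ano1* (15.97-fold, 65.7 against 4.11 CPM), its relative *Ano2* (9.42-fold) and the transcription factor genes *Zic1* (8.14-fold) and *Zic4* (8.11-fold). All 4 genes were at 0 CPM in *Sel1L* flox/flox replicate 2, which gave 15 of these nuclei, and *Ano1* was at 97.5, 0, 21.5 and 51.7 CPM. Genes of Cajal-Retzius cells summed to 163 CPM there, against 106 CPM in all other nuclei and 44.8 CPM in the shallower members. These ratios come from the counts that chose the members and were not tested.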
